A study of Mus musculus with 884 samples.

Results

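These results concern mid-S cells on day 7 and day 6 of neural differentiation, and the question they answer is how far the replication timing of the autosomes still moved over the last day of the course. The series holds 884 single mouse cells profiled by single-cell Repli-seq, a method that sequences the amplified DNA of a sorted cell and calls each part of its genome as copied or not yet copied. Members were S-phase cells of d7 and d6 with a replication score of 40 to 70%, where the score is the percentage of called autosomal bins that were replicated. They made up 13.8% of the cells of the series, with 79 and 22 cells at d7, in sets that differ in processing as described below, and 21 cells at d6. This is 46.1% of the S-phase cells of d7 and 32.8% of those of d6.

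All of them came from CBMS1, a female embryonic stem cell line of the hybrid strain CBA/MsM, and carry no other labelled allele. The d7 cells had been kept for 7 days, and the d6 cells for 6 days, out of 2i/LIF medium. Both had passed 2 days as epiblast-like cells before aggregation in GK15 medium with no added factor, a culture that yields neurectoderm by d7, per the labels' protocols. The files hold DNA calls and no expression, so the cell type could not be set against its markers. Cells of d0, d2, d3, d4 and d5 are used for context, together with epiblast stem cells (EpiSCs), a separate line grown in Activin/FGF. No label names a culture or an animal and the line is a single one, so each day is 1 sample. No test between days was therefore possible, and cells were not taken as replicates. Differences were read with a fixed size rule, and intervals are exact 95% intervals (Clopper-Pearson) for counting cells and hold no error between cultures. Since the DNA of each cell was amplified before sequencing, they cover counting error only.

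Mammalian genomes are copied in a set order, in large domains that start early or late in S phase. Early domains are mostly gene-rich, transcribed and part of the open A compartment, while late domains are mostly gene-poor, near the nuclear lamina and part of the B compartment. During neural differentiation of mouse embryonic stem cells a share of domains is known to switch between early and late. In a cell caught in mid-S, an early domain is already copied and a late one is not, so the share of mid-S cells in which a bin is replicated is a reading of its timing: a higher share means earlier.

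Cells of the 2 days were close in mean score, but less so in median score. The median was 56.97% at d7 and 52.24% at d6. The mean score was 56.4% ± 8.34 at d7 and 54.5% ± 8.50 at d6 (SD over cells), with ranges of 41.4 to 69.7% at d7 and 42.1 to 69.5% at d6. The nearest S-phase cells outside the window had scores of 38.7 and 70.3% at d7 and 39.8 and 71.2% at d6. Bins called per cell, out of 30890 of 80 kb, had a median of 29669 at d7 and 29704 at d6. The share of a bin at d6 moves in steps of 4.76 points. Near a share of 50%, the interval ran from 39.4 to 59.6% at d7 and from 25.7 to 70.2% at d6, so the d6 cells set the precision of every bin.

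The calls of most cells followed the timing profile of their own day. The area under the curve with which a cell's calls were ranked by the mean profile of the other cells had a median of 0.953 at d7 and 0.947 at d6. It was below 0.8 in 3 d7 cells, with a lowest value of 0.468, and in 0 d6 cells, with a lowest value of 0.867. Leaving the 3 cells out changed the counts of bins and regions between all d7 cells and d6 by less than 1.5 times. The cells at 0.468 and 0.647 belong to the smaller d7 set of 22 cells described below. The counts of that set were not repeated without them.

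The days also differed in how they were processed, which bears on every result here. Each cell had been corrected by the authors with merged G1 cells that served as its mappability control. All 21 d6 cells were corrected with 1 d6 control. Of the d7 cells, 22 were corrected with that same d6 control and 79 with 3 controls of d7. The 22 cells are a second, smaller comparison in which both days share the control, chosen after the data were seen, and its values are given beside the main ones. The 2 sets of d7 cells also differ in other labels. The 22 cells all came from gates set by percent of S phase and from the present series, like the d6 cells, whereas 52 of the 79 were sorted through a single mid-S gate and 35 had been deposited before. Within d7, gate and origin each go with the control in part. Their separate parts in the results were not tested.

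Replication timing at d7 stayed close to that at d6 over nearly all of the autosomes. Of 29693 bins compared, 652 differed by 0.3 or more of the cells. The larger number, 459 bins, was earlier at d7 (1.55%, 36.72 Mb), and the rest were later at d7 (0.65%, 15.44 Mb). The difference was within 5 points in 53.8% of bins and within 10 points in 73.8%, with a median size of 4.43 points. The largest differences were 55.4 points towards earlier and -57.2 points towards later at d7. Bins that were earlier at d7 thus outnumbered bins that were later, and the mean share over all bins was 1.81 points higher at d7, where the mean score was also higher. The excess did not hold when each d6 cell was paired with the d7 cell closest in score: 298 bins were then earlier and 418 later.

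**Figure D1:**
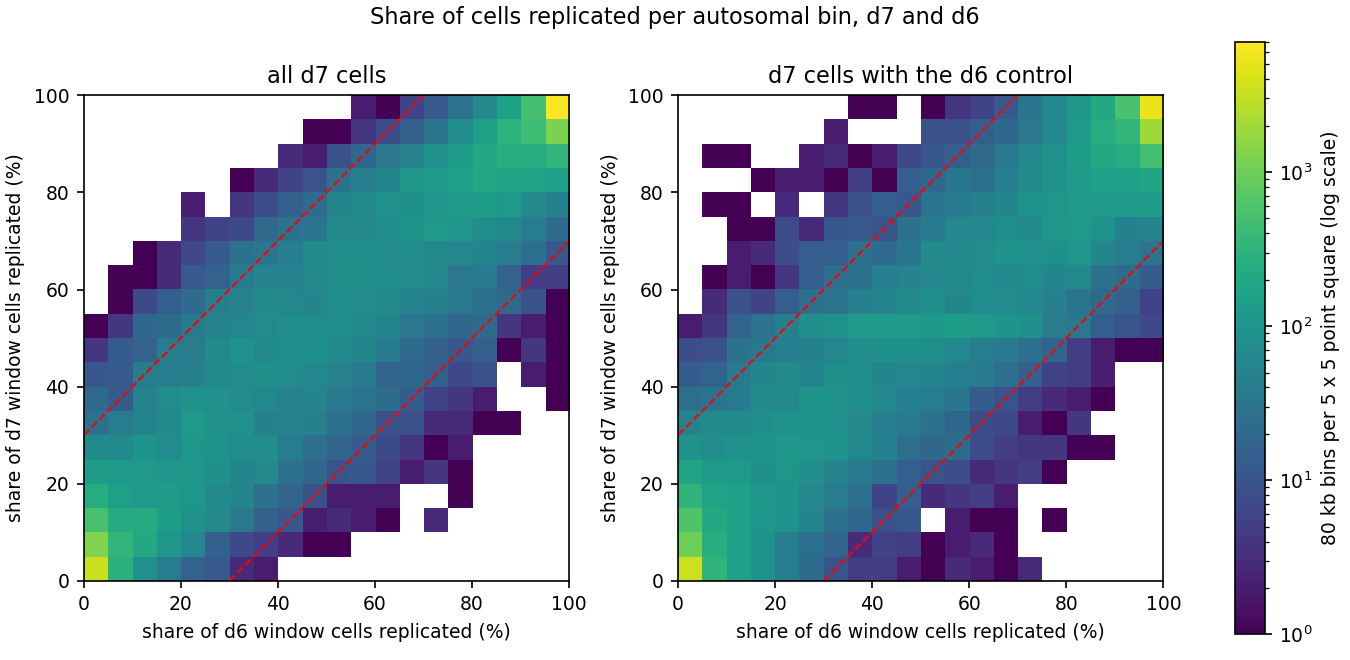
Share of window cells in which each 80 kb autosomal bin was replicated, at d7 on the vertical axis and at d6 on the horizontal axis, in percent; colour gives the number of bins per square of 5 by 5 points on a log scale, and dashed lines mark differences of 30 points. The left panel holds all d7 cells and the right panel the 22 d7 cells corrected with the d6 control, against the same 21 d6 cells. In both panels most bins lie near the diagonal, with few in the corners where early and late would have swapped.

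No bin crossed between the early and the late class. With bins replicated in at least 80% of cells called early and bins in at most 20% called late, 86.5% of bins were in the same class on both days. Early bins made up 41.3% at d7 and 40.7% at d6, middle bins 30.8% and 28.7%, and late bins 28.0% and 30.5%. Every change of class passed to or from the middle: 1407 bins were middle at d7 and late at d6, 647 late at d7 and middle at d6, 1061 early at d7 and middle at d6, and 905 middle at d7 and early at d6. Among cells sharing the d6 control, 85% of bins were in the same class and 3 bins were early at d7 and late at d6.

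The step from d6 to d7 held fewer differences past the rule than the step before it. At d6 against d5, with 21 and 20 cells, 1120 bins were earlier (3.77%) and 1139 later (3.83%), in 81 and 69 regions. The 2 steps share the d6 cells, and d7 has more cells than d5, so their counts do not stand on equal precision. The d5 cells were all corrected with another G1 control than the d6 cells. Day and control therefore cannot be told apart in the step from d5 to d6. With the d6 control alone, 22 d7 cells against the 21 d6 cells, 509 bins were earlier (1.72%) and 302 later (1.02%). The 79 d7 cells with d7 controls gave 779 earlier (2.62%) and 312 later (1.05%) against the same d6 cells.

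Within d7 itself, the 22 cells with the d6 control and the 79 cells with d7 controls differed past the rule in 1248 bins, 494 earlier (1.67%) and 754 later (2.54%) in the cells with the d6 control. This is a larger number than the 652 bins found between the days, at other cell numbers. Over all bins the correlation of shares was 0.961 between d7 and d6 and 0.942 between these 2 sets of d7 cells. Both are descriptions over bins that share cells and chromosomes.

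Adjacent bins past the rule formed 22 regions earlier at d7 and 9 later, counting runs of at least 5 bins (400 kb). The earlier regions held 36.4% of the earlier bins, with a median length of 560 kb and a longest of 1040 kb. The later ones held 51 bins, 26.4% of the later bins, with a median of 400 kb and a longest of 720 kb. Most bins past the rule therefore lay alone or in short runs. For each direction, the 6 regions that differed most on average are described below. The same cells served to choose and to measure them. Coordinates are those of the files (mm9). No gene annotation of that build was at hand, so no gene is placed on them. A cell counted as replicated for a region when over 50% of its called bins were.

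The region on chromosome 1 from 128160001 to 128880000 showed the largest gain, and a like one under either control. It was replicated in 73 d7 cells (72.3%, interval 62.5 to 80.7) and in 5 of 21 d6 cells (23.8%, 8.22 to 47.2). Among d7 cells, 17 of 22 with the d6 control and 56 of 79 with d7 controls had replicated it. At d7 the whole region was replicated in 51 cells and none of it in 14, against 2 and 11 cells at d6. Split by score, the cells that chose the region showed the gain in each part of the window. Under 50%, 14 of 25 d7 cells and 0 of 8 d6 cells had replicated it. Between 50 and 60% it was replicated in 25 of 38 d7 cells and 1 of 6 d6 cells. Above 60%, 34 of 38 d7 cells and 4 of 7 d6 cells had done so. Because these cells chose the region, the split is no separate check of the gain. In other groups the region had a mean share of 17.1% at d0, 2.56% at d3 and 35.6% at d5, and 21.8% in EpiSCs.

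The chromosome 5 region from 133280001 to 133840000 behaved likewise under both controls. It was replicated in 68 d7 cells (67.3%) and 5 of 21 d6 cells. The number was 17 of 22 (77.3%, 54.6 to 92.2) in d7 cells with the d6 control and 51 of 79 (64.6%) in those with d7 controls, against an interval of 8.22 to 47.2% at d6.

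The next gains were smaller with the d6 control, at 36.4, 33.1 and 30.5 points over d6, than with d7 controls, at 39.9, 40.6 and 41.3 points. Chromosome 3 from 28400001 to 28800000 was replicated in 60 d7 cells and 4 d6 cells, and in 13 of 22 d7 cells with the d6 control. The distal chromosome 5 region, 141600001 to 142080000, was replicated in 78 d7 cells and 7 d6 cells, and in 16 of 22 with the d6 control. Chromosome 15 from 94560001 to 95280000 was replicated in 53 d7 cells and 3 d6 cells, and in 10 of 22 with the d6 control. The 3 regions had different pasts. Chromosomes 3 and 15 had been early-leaning in naive cells, with mean shares of 71.2% and 63.7% at d0, while distal chromosome 5 stood at 26.6% at d0 and had already reached 74.2% at d5, above its 38.9% at d6.

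The gain on chromosome 8, from 70000001 to 70560000, was seen with d7 controls and was small with the d6 control. It was replicated in 57 d7 cells (56.4%) and in 4 of 21 d6 cells. The number was 51 of 79 (64.6%) with d7 controls and 6 of 22 (27.3%, 10.7 to 50.2) with the d6 control, against an interval of 5.45 to 41.9% at d6. The part of the control in this gain was not tested.

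**Figure D2:**
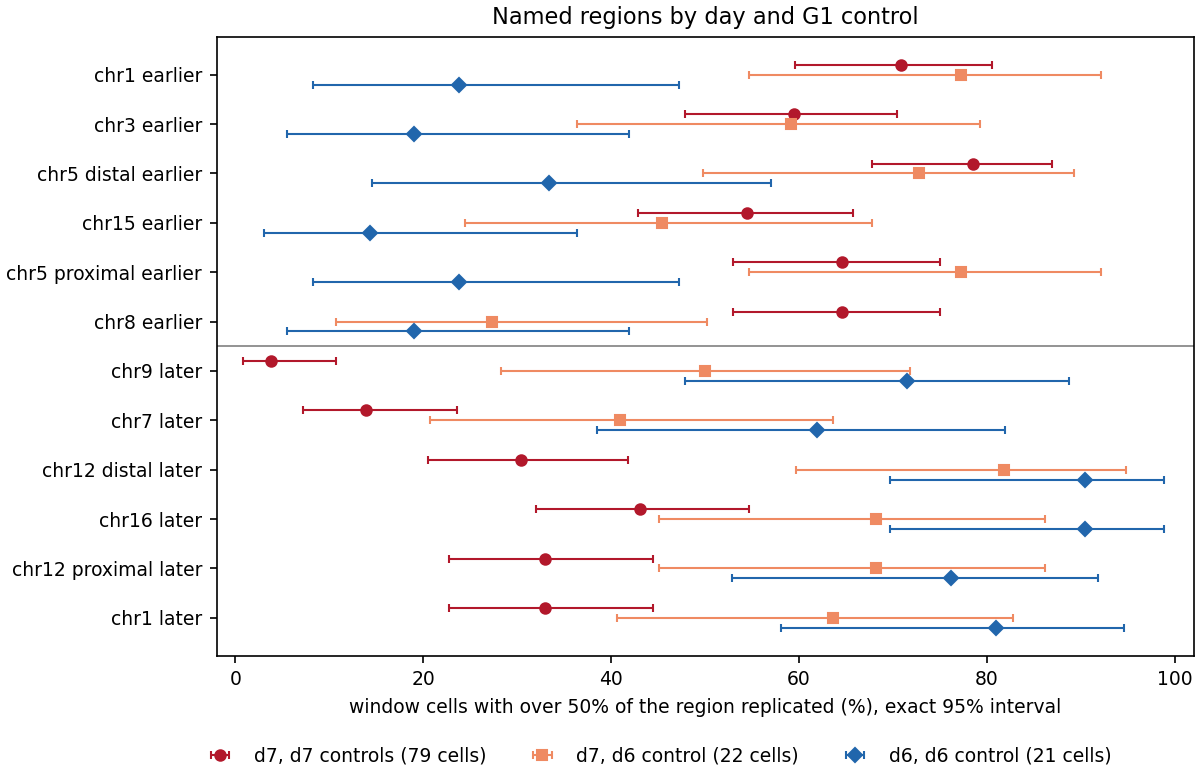
Percentage of window cells with over 50% of each named region replicated (horizontal axis), with exact 95% intervals; circles are the 79 d7 cells with d7 controls, squares the 22 d7 cells with the d6 control and diamonds the 21 d6 cells. Above the line are the regions earlier at d7 and below it those later at d7. In the chromosome 1 gain both sets of d7 cells lie near 70 to 80%, whereas the chromosome 9 loss had 3 of 79 d7 cells with d7 controls replicated, 11 of 22 with the d6 control and 15 of 21 d6 cells.

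Each of the 6 named losses was smaller with the d6 control. The steepest was on chromosome 9 from 81120001 to 81520000, replicated in 14 d7 cells (13.9%, 7.79 to 22.2) and 15 of 21 d6 cells (71.4%, 47.8 to 88.7). The 14 cells were 11 of 22 with the d6 control and 3 of 79 with d7 controls. The region was late through the course, with mean shares from 0 to 6.67% between d0 and d5, and 13.8% in EpiSCs. Cells sorted from G1, which should have replicated nothing, also had calls of replication there with the d6 control: 3 of 7 d7 G1 cells and 2 of 7 d6 G1 cells, against 0 of 15 d7 G1 cells with d7 controls, a count that allows a share of up to 21.8% by the exact interval.

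The other named losses differed by -27.7 to -8.96 points in mean share with the d6 control. Chromosome 16 from 12160001 to 12560000 was replicated in 49 d7 cells and 19 of 21 d6 cells, and in 15 of 22 d7 cells with the d6 control. Chromosome 7 from 46640001 to 47120000 was replicated in 20 d7 cells and 13 d6 cells, and in 9 of 22 with the d6 control. These 2 losses were the largest that remained with a shared control, at -27.7 and -24.9 points in mean share. At chromosome 16 the d6 share of 90.5% stood above every other group, with 47.5% at d7, 24.4% at d0 and 72.3% in EpiSCs.

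Both chromosome 12 losses were small with the shared control. The distal one, 117200001 to 117600000, was replicated in 42 d7 cells and 19 of 21 d6 cells, with a mean share of 69.1% in d7 cells with the d6 control and 79% at d6. The proximal one, 51840001 to 52240000, was replicated in 41 d7 cells and 16 d6 cells, with mean shares of 68.2% and 77.1% in the same comparison. With d7 controls, the mean shares at d7 were 26.8% and 30.4%.

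The chromosome 1 loss, from 4320001 to 5040000, was the one with the highest share at d5 among the 6. Its mean share was 89.6% at d0, 79.4% at d5 and 89.7% in EpiSCs. At d7 it was replicated in 40 cells (39.6%) and at d6 in 17 of 21 (81%). In d7 cells with the d6 control the mean share was 56.6%, against 75.1% at d6.

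**Figure D3:**
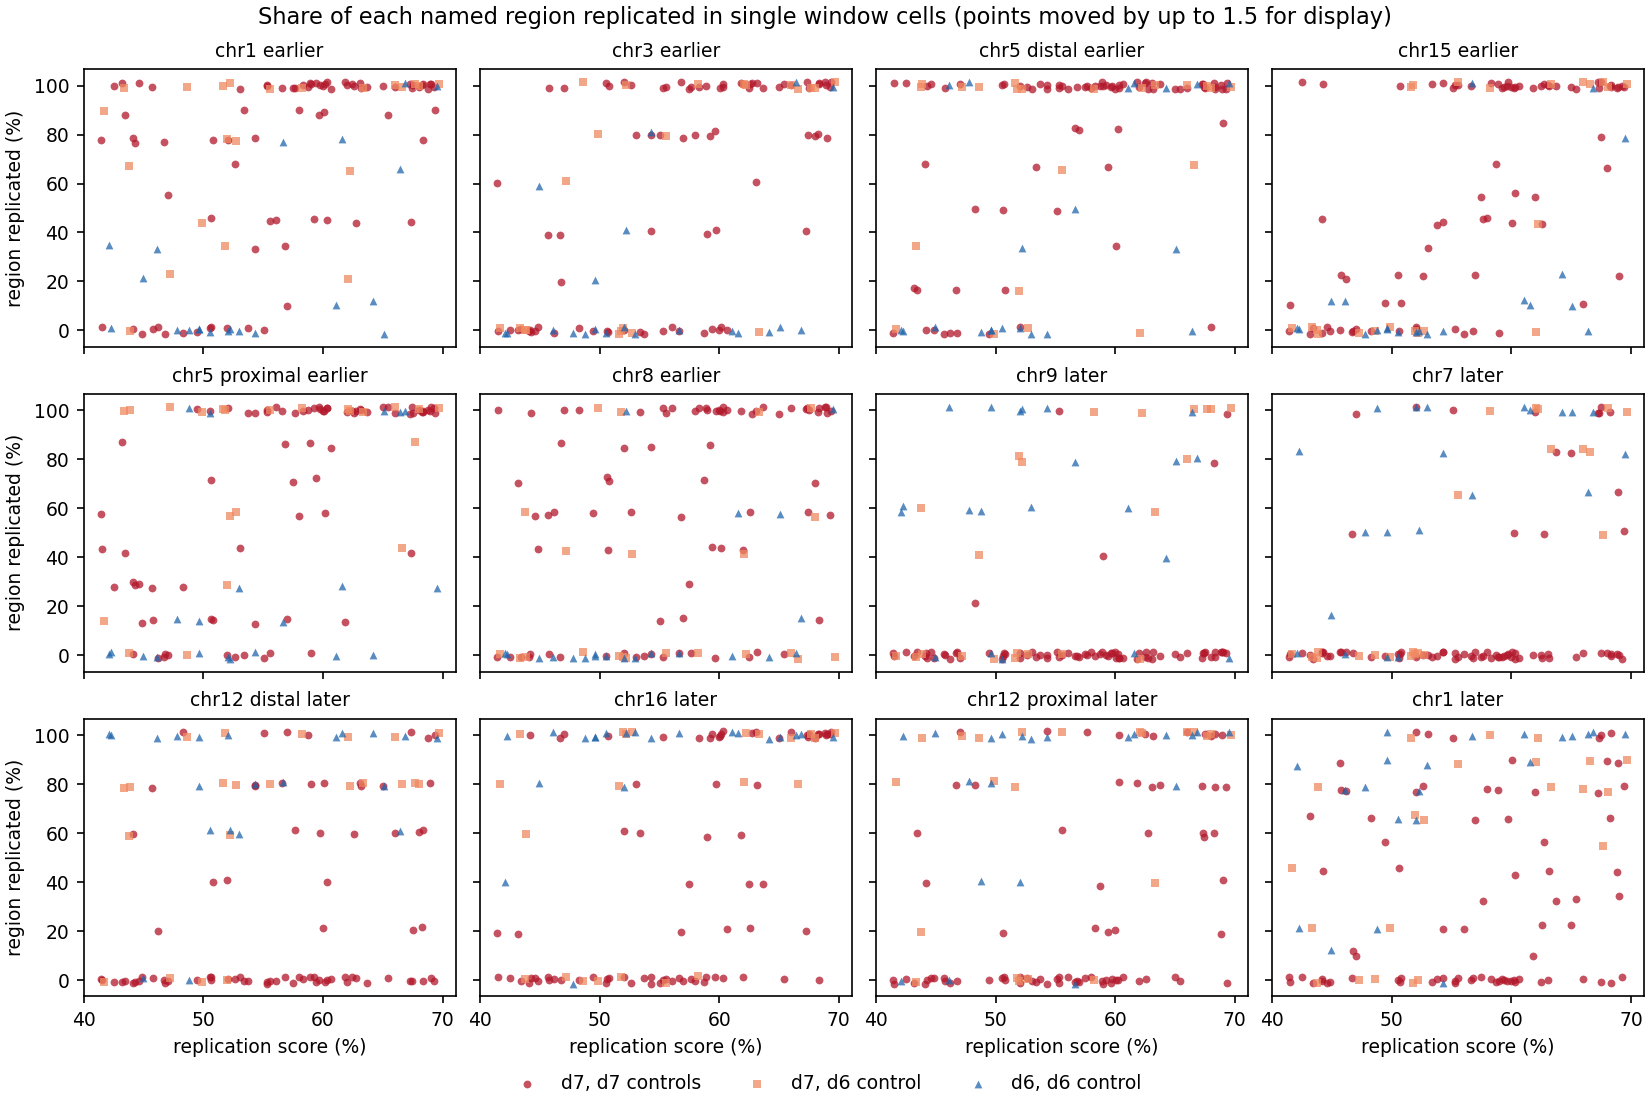
Each point is 1 window cell, placed by its replication score in percent (horizontal axis) and by the percentage of the region's called bins that it had replicated (vertical axis), for the 12 named regions; circles are d7 cells with d7 controls, squares d7 cells with the d6 control and triangles d6 cells, and points are moved slightly for display. In most regions the greater number of cells sits at 0 or 100%. In the chromosome 1 gain the d7 cells reach 100% at lower scores than the d6 cells.

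Over all regions, the 22 gains differed from d6 by 31.3 to 46.2 points in d7 cells with d7 controls and by 2.55 to 51.9 points (median 22.4) in d7 cells with the d6 control. The 9 losses differed by -54.7 to -40.2 points with d7 controls and by -27.7 to -7.23 points (median -15.7) with the d6 control. The named gains on chromosome 1 and proximal chromosome 5, and the gain on chromosome 11, were larger with the d6 control than with d7 controls. The other gains, among them further ones on chromosome 1, were smaller with it. With the d6 control, 7 of the 22 gains and 0 of the 9 losses still passed the rule. The 7 were the named gains other than chromosome 8, with chromosome 2 from 109200001 to 109760000 and chromosome 11 from 111440001 to 111840000, which are named here after their values were seen. These comparisons share the d6 cells, and most d7 cells that chose the regions had d7 controls, so they are not independent of each other or of the choice. For the 459 bins the mean share was 66.2% in d7 cells with d7 controls, 48.4% in d7 cells with the d6 control and 26.8% in d6 cells. For the later bins it was 29.4%, 51% and 70.9%.

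The regions differed in how sharply they ended. Over the 5 bins on either side, the difference between d7 and d6 had a median of 13.6 points beside the gains and -16 beside the losses. It was under 10 points in 12 of 44 flanks of gains and 4 of 18 flanks of losses, and ran from 0.632 to 30.1 points beside gains and from -32.7 to -4.68 beside losses. The flanks were measured on the cells that chose the regions. Flanks of the chromosome 1 gain differed in timing from each other: to the left the mean share was 48.5% at d7 and 24.8% at d6, and to the right 84.4% and 74.3%.

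Cells outside the window, which took no part in choosing regions, were then examined. They share days and G1 controls with the window cells, so they are not an independent check. Before the window, at scores of 10 to 40%, 31 d7 cells (mean score 27.9%) and 18 d6 cells (23.5%) were at hand. The gains had a mean share of 9.35% at d7 and 2.60% at d6 there, with the share higher at d7 in 20 of 22 regions. A higher mean score favours a higher share at d7 in any region, so these gains cannot be told apart from the difference in score. The losses had 12.9% at d7 and 23.1% at d6, with the share lower at d7 in 8 of 9, although the d7 cells were further into S phase. In the 17 of these d7 cells with d7 controls (mean score 28.8%), the mean share was 13.2% in the gains and 9.24% in the losses. In the 14 with the d6 control (mean score 26.8%), it was 4.70% in the gains and 17.4% in the losses. The sign was then that of the window in 14 of 22 and 7 of 9 regions.

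After the window, at scores of 70 to 90%, 49 d7 cells (mean score 79.3%) and 11 d6 cells (80.3%) had, on average, replicated most of the chosen regions. The gains stood at 93% at d7 and 94% at d6, and were higher at d7 in 7 of 22 regions. The losses stood at 88% at d7 and 98% at d6, and were lower at d7 in 8 of 9. In the 27 of these d7 cells with d7 controls, the gains stood at 95.2% and the losses at 82.4%. In the 22 with the d6 control, the gains stood at 90.4% and the losses at 95%, with the sign of the window in 4 of 22 and 6 of 9 regions. Of the losses, chromosome 9 was far below the rest at d7, replicated in 26 of 49 d7 cells and 10 of 11 d6 cells. By control, it was replicated in 8 of 27 late d7 cells with d7 controls and 18 of 22 with the d6 control.

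The score at which a region was replicated in 50% of cells, fitted over S phase, gave the size of these differences along S phase. Over scores of 5 to 95%, the midpoint at d7 minus that at d6 ran from -21.2 to -6.4 points in the 22 gains, which is earlier at d7, and from 15.4 to 30.8 points in the 9 losses. In d7 cells with the d6 control it ran from -22.6 to 1.1 points in the gains and from 4 to 13 points in the losses. The chromosome 1 gain was fitted at a score of 43.8% at d7 and 65% at d6, and at 42.4% in d7 cells with the d6 control. The chromosome 9 loss was fitted at 78.8% at d7 and 48% at d6, and at 53.8% in d7 cells with the d6 control. These fits include the window cells.

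In d5 cells and EpiSCs, which had no part in choosing them, the bins past the rule were more often of middle timing than of either other class. At d5, 65.1% of the earlier bins and 56% of the later bins were in the middle class, against 25.1% of all bins. In EpiSCs the values were 63.4%, 51.3% and 26.8%, and at d0 they were 60.8%, 42.5% and 28.4%. At d0 the later bins were a little more often early than middle, at 45.6%, close to the 43.1% of all bins that were early. A share near the middle has room to move past the rule and the widest counting error, whereas a bin at the ends has little.

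Across the whole course, d7 and d6 stood at the opposite ends in these bins. In the 459 bins the mean share at d0 was 42.3%, with 30.6% at d2, then 34.1% (d3), 37.1% (d4), 43.1% (d5), 26.8% (d6) and 62.4% (d7), and 50.4% in EpiSCs. That of the later bins was 64.1%, 56.2%, 63.7%, 53.3%, 53.2%, 70.9% and 34.1% over the same days, and 56.7% in EpiSCs. The earlier bins had their highest value at d7 and their lowest at d6, and the later bins their lowest at d7 and their highest at d6, as the choice of bins on these 2 days favours. All d6 cells had the d6 control and no d5 cell did. Within d7, cells with the d6 control differed from those with d7 controls by -17.7 points in the earlier bins and 22.1 in the later bins. The part of the control in the d6 values was not tested. At d5 the share was nearer to d7 than to d6 in 47.3% of the earlier bins and 46.1% of the later bins, next to 43.6% of all bins.

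**Figure D4:**
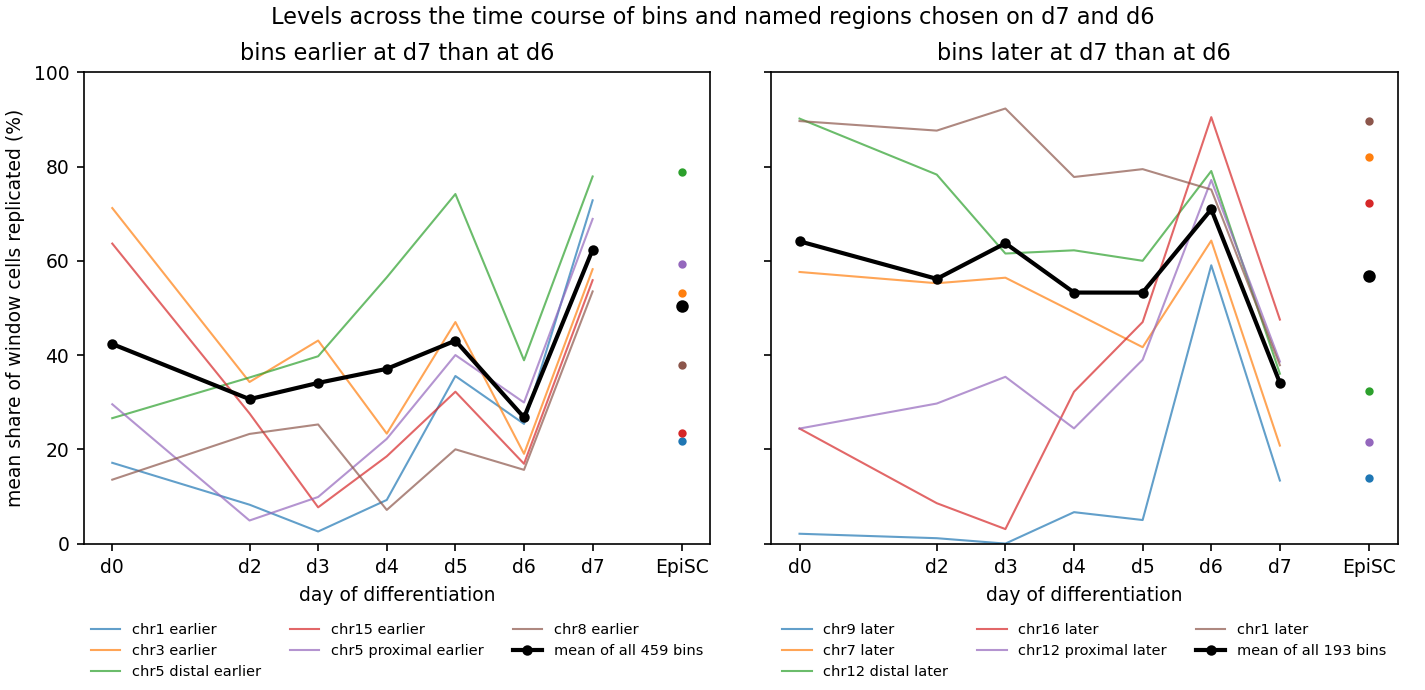
Mean share of window cells replicated (vertical axis, percent) by day of differentiation, d0 to d7, with EpiSCs at the right, for all bins past the rule (black) and the named regions (colours); the left panel shows bins earlier at d7 than at d6 and the right panel bins later at d7. The black line stands at 62.4% at d7 and 26.8% at d6 on the left, and at 34.1% at d7 and 70.9% at d6 on the right.

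Some of these bins were also past the rule between d0 and d5, counted as single bins. From d0 to d5, 1307 bins gained and 1827 lost 0.3 or more of the cells, a comparison that shares no cell with d7 or d6. Of the 459 bins earlier at d7, 55 (12.0%) were among the gaining bins, which is 4.21% of those, and 46 (10.0%) among the losing bins, or 2.52% of those. Of the bins later at d7, 28 (14.5%) were among the losing bins, or 1.53% of those, and 3 (1.55%) among the gaining bins, or 0.230% of those. Over all bins compared between d7 and d6, 4.4% were gaining and 6.13% losing bins.

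On the bins that gained or lost from d0 to d5, d7 and d6 cells had similar medians. The share of gaining bins that were replicated minus the share of losing bins served as an index of timing state per cell, negative in naive cells. Over the course its median was -0.47 (d0), -0.11 (d2), -0.05 (d3), 0.20 (d4), 0.55 (d5), 0.36 (d6) and 0.38 (d7), and it was 0.24 in EpiSCs. The medians of d7 and d6 differed by 0.01, with an SD over cells of 0.15 at d7 and 0.23 at d6, which describes the cells and not the error of the medians. By control the median at d7 was 0.37 with d7 controls and 0.39 with the d6 control. Since d5 and d0 chose the bins, their own values are a description. Gaining bins were replicated in 70.1% at d7 and 64.7% at d6, and losing bins in 34.8% and 33%.

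A few cells of both days had a naive-like index. At or below an index of -0.26, the 95th percentile of d0 cells, lay 2 d7 cells (1.98%, 0.241 to 6.97) and 2 of 21 d6 cells (9.52%, 1.17 to 30.4). Both d7 cells had d7 controls and came from the mid-S gate of the present series. No d7 cell with the d6 control or of the previous series was that low. The lowest index was -0.40 at d7 and -0.43 at d6. The highest was 0.51 and 0.48. Without these cells 456 bins were earlier, and 0.731% of bins were later.

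Cells of the 2 days were nearly as alike as cells of 1 day. Pairs were formed of cells no more than 5 points apart in score, and the percentage of bins with the same call in both was taken. Its median was 82.6% within d7 (1543 pairs), 83% within d6 (69 pairs) and 81.9% for a d7 with a d6 cell (652 pairs). Pairs of a d7 cell with the d6 control and a d6 cell agreed in 82.6% of bins. Within d7, pairs of a cell with the d6 control and a cell with d7 controls agreed in 81.1%, below the value between the days. Pairs share cells, so these are descriptions.

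Chromosomes carried unequal numbers of bins past the rule. Chromosome 1 had the highest share, with 77 bins earlier and 20 later (4.05% of its bins), followed by chromosome 8 with 55 and 1 (3.59%), chromosome 5 with 54 and 6 (3.27%) and chromosome 15 with 32 and 7 (3.11%). Chromosome 19 had the lowest, with 0 and 4 (0.551%). With the d6 control, chromosome 1 had 62 earlier and 35 later bins (4.05%), whereas chromosome 8 had 3 and 5 (0.512%) and chromosome 13 was highest with 60 and 13 (5.01%).

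The mean share of chromosome 8 differed by control. Its mean share was 57.6% at d7 and 51% at d6, a difference of 6.61 points, which was the largest of the 19 autosomes. The difference from d6 was 8.69 points in d7 cells with d7 controls and -0.72 points in d7 cells with the d6 control. Single cells also stood apart on this chromosome. The median over cells of its share, relative to the other autosomes, was 0.511 points in d7 cells with d7 controls, -2.42 in d7 cells with the d6 control and -1.83 in d6 cells. Relative to the other autosomes, chromosome 8 was more than 20 points above the day's median in 5 of 79 d7 cells with d7 controls, up to 44.2 points above the other autosomes, and more than 20 points below in 2 of 22 d7 cells with the d6 control and 1 of 21 d6 cells, down to -57.7 points. Counting any chromosome, 11 of 79, 4 of 22 and 1 of 21 cells deviated by more than 20 points. Just 1 chromosome deviated in 9 of the 11 cells, in 1 of the 4 and in the d6 cell. The 4 cells with the d6 control involved 18 different autosomes, and the 11 cells with d7 controls 13. Without the deviating cells 602 bins were earlier (2.03%) and 0.65% were later, in 28 and 7 regions. Without chromosome 8, 404 bins were earlier (1.44%) and 0.682% were later. The part of these cells in the chromosome 8 difference was not tested beyond that.

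**Figure D5:**
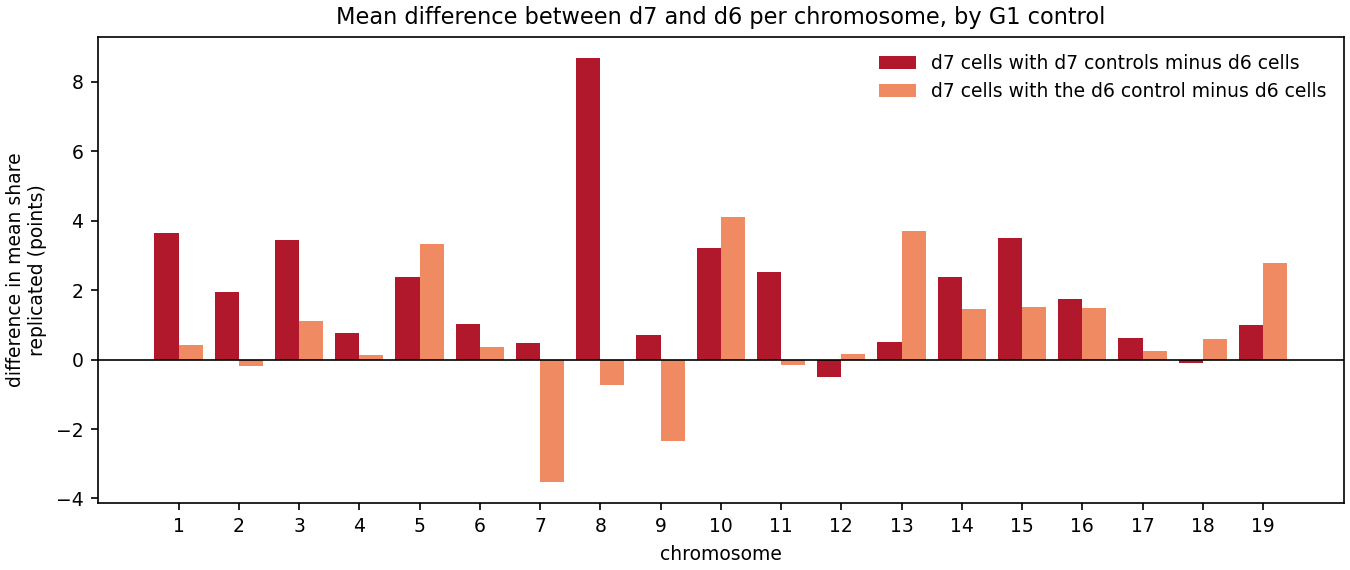
Difference from d6 in the mean share of window cells replicated, in points (vertical axis), for each autosome, in the 79 d7 cells with d7 controls (dark bars) and the 22 d7 cells with the d6 control (light bars). Chromosome 8 stands at 8.69 points in the dark bars and -0.72 in the light bars.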

How the data were processed

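Single cells were sorted by DNA content, amplified with SeqPlex and sequenced as single reads, per the labels' protocols. The submitters' processing notes name the mm9 build, cutadapt, Picard and BWA 0.7.10-r789. Mappability had been corrected in each cell by the authors with a merged G1 control, and each 80 kb bin called 1 (replicated), -1 (not replicated) or 0 (no data), a deposited score without a unit, per the file headers. The deposited replication score is a fraction of autosomal bins and is given here in percent. Read depth was not used here, and bins called per cell stand in for it.

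Groups came from titles. A bin entered a comparison when at least 50% of the cells of each day had a call, and days were compared by a difference of 0.3 or more in the share of called cells. In each direction the 6 runs of at least 5 adjacent bins with the largest mean difference were named. Midpoints came from a grid of logistic curves with 1% of calls taken as wrong. Steps were tested on simulated data. Members, lists and rules were chosen with earlier results of these data known. Alternatives covered the window, matching in score, origin, gates, cell and bin filters, the size rule, run length and the midpoint. Those on the G1 control, deviating chromosomes and chromosome 8 were added after seeing the data. Python 3.11.15, numpy 2.4.6, pandas 2.3.3, scipy 1.17.1 and matplotlib 3.10.9 were used.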

Additional observations from a re-analysis of the deposited data

How the results depend on the processing

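Values are given as the percentages of compared bins earlier and later at d7 than at d6, then as regions earlier and later, and are 1.55%, 0.65%, 22 and 9 in the report. A window of 45 to 65% gave 3.34%, 1.12%, 59 and 16. Matching d7 cells in score to the 21 d6 cells gave 1.004%, 1.41%, 13 and 13, so the excess of earlier bins turned round. The cause was not tested. d7 cells of the previous series gave 3.38%, 1.36%, 51 and 17, and the gates that both days share left 13 and 3 regions. A size rule of 0.2 gave 5.91%, 2.53%, 95 and 39, and one of 0.4 gave 0.236%, 0.152%, 1 and 0. Runs of at least 3 bins gave 54 and 25 regions, and runs of at least 10 gave 5 and 0. The logistic midpoint gave 0.00337%, 0.178%, 0 and 2 for differences of 0.3 of the score.

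Among alternatives added after seeing the data, d7 cells with d7 controls gave 2.62%, 1.05%, 38 and 18. Those with the d6 control gave 1.02% later, and their midpoint gave 0.0674%, 0.290% and 1 region earlier. Leaving out each d6 cell in turn gave 1.32 to 2.21%, 0.586 to 0.852%, 17 to 30 and 8 to 12. The other alternatives run kept each value within 1.5 times. None of the 12 named regions changed sign under an alternative. All alternatives drew on the cells that chose the regions, which favours the same sign. Some losses moved beyond the interval of their main difference. With the d6 control, chromosome 9 came to -13.6 points, and distal and proximal chromosome 12 to -9.96 and -8.96 points. Matching in score brought chromosome 16 to -55.2 points. The index difference was 0.00147 to 0.0378. No paired analysis was possible because each day is 1 sample and cell numbers do not pair across days. The 21 d6 cells limit precision throughout.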

Other observations

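With only the d7 cells that share the d6 control, other regions lead. There were 30 regions earlier and 13 later than at d6. The set was not examined again without its cells of low area under the curve or with deviating chromosomes. The set shares its cells with the comparison of the report, and the regions were chosen after the data were seen and measured on the 22 d7 and 21 d6 cells that chose them.

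The largest gain of this set lay on chromosome 10 from 57200001 to 57680000, replicated in 19 of 22 d7 cells and 5 of 21 d6 cells. The d7 cells with d7 controls, which did not choose it, had replicated it in 31 of 79. A gain on chromosome 4 from 113280001 to 113840000 was replicated in 14 of 22 d7 cells and 1 of 21 d6 cells, and in 6 of 78 d7 cells with d7 controls. The chromosome 1 and chromosome 5 gains of the report were again among the first 6 of this set, ending at 128960000 and 134160000.

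The largest losses of this set were on chromosome 7 from 2960001 to 3360000, replicated in 3 of 22 d7 cells and 16 of 21 d6 cells, and on chromosome 17 from 6160001 to 6560000, in 4 of 22 and 14 of 21. Both were early in naive cells, with mean shares of 95.2% and 92% at d0. In d7 cells with d7 controls they were replicated in 39 and 60 of 79 cells.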
